A study of Mus musculus with 8 samples.

Results

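The miRNA content of normal mouse skin was described from 4 of the 8 samples in the study, those labelled normal and named here normal 1 to 4. Each was hybridised to its own 1-colour array carrying probes for 1881 mouse miRNAs. A miRNA was taken as present where the scanner software marked it as detected on all 4 arrays, which left 250 of the 1881 (13.3%). The normal mice were male, had the genotype Ncstn flx/flx; Krt14 CreER+/- and were given corn oil by gavage from 8 weeks of age, in place of the tamoxifen that the deleted group received, and skin was taken at 16 weeks. They were therefore not wild type: they carried both floxed alleles of Ncstn, which encodes the γ-secretase subunit nicastrin, and a transgene in which the Krt14 promoter of basal keratinocytes drives a tamoxifen-dependent Cre recombinase. The protocol calls the excised tissue skin lesions for both groups, and the labels do not give the body site. The labels do not say whether the 4 samples came from separate mice, so an SD over them covers how far these 4 arrays varied, part of which may be technical. The arrays lay side by side in 1 row of 1 slide and were scanned together. Normal 1 to 4 lay in columns 1 to 4 in that order, so slide position and sample cannot be told apart.

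A miRNA is a short RNA cut from one side (the 5p or the 3p arm) of a hairpin precursor and loaded into an Argonaute protein, where bases 2 to 8, the seed, pair with target mRNAs. miRNAs that share a seed form a family with overlapping targets. Skin is a mixed tissue of epidermis, hair follicles, dermis, vessels, fat, nerves, blood and, in the mouse, a thin sheet of striated muscle beneath the dermis, and several miRNAs are known for their enrichment in one of these. miR-203 and miR-205 are the best known miRNAs of keratinocytes, where miR-203 restrains p63 and favours exit from the cell cycle on differentiation.

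The mature sequences of 7 miRNAs that the results turn on are printed here, 5′ to 3′, with the seed in capitals, from RefSeq's annotation of build GRCm38.p6. The first 2 were the brightest miRNAs, the next 4 mark epithelium or muscle, and miR-494-3p comes from the imprinted Dlk1-Dio3 locus.
miR-6366: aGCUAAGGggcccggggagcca
miR-3963: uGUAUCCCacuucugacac
miR-205-5p: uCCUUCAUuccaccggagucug
miR-203-3p: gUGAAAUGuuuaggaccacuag
miR-133b-3p: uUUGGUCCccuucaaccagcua
miR-206-3p: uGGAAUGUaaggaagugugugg
miR-494-3p: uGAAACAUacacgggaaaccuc

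The let-7 family, known for silencing Lin28, Hmga2 and Ras genes in differentiated cells, is shown with the capitals on the shared seed, because it was the brightest family and its members differ by few bases.
let-7a-5p: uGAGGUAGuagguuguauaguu
let-7b-5p: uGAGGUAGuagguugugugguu
let-7c-5p: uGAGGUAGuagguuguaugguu
let-7d-5p: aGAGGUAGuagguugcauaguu
let-7e-5p: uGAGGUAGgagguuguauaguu
let-7f-5p: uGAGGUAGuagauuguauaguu
let-7g-5p: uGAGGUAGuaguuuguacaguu
let-7i-5p: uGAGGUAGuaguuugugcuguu
miR-98-5p: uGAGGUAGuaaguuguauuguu

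The 2 groups of the miR-200 family, which hold cells in an epithelial state by repressing Zeb1 and Zeb2, are shown because each group has a seed of its own, in capitals.
miR-200a-3p: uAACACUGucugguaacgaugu
miR-141-3p: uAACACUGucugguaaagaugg
miR-200b-3p: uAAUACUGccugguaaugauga
miR-200c-3p: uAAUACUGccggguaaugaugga
miR-429-3p: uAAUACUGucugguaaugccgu

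Brightness is given as intensity (the software's background-subtracted fluorescence, averaged over the spots of a probe and summed over the probes of a miRNA) and as signal share, the percentage of the summed intensity of the 250 miRNAs on that array. The software marked 295, 311, 274 and 280 miRNAs as detected on normal 1 to 4 (290 ± 16.6, mean ± SD, n = 4), and the summed intensity of the 250 ran from 526362 to 643741. A signal share is not a share of molecules, since probes differ in how well they label and bind. The spread between probes of the same miRNA could be measured in 154 miRNAs with at least 2 probes well above background on all 4 arrays. There the brightest probe gave a median of 1.94 times the signal of the dimmest one (quartiles 1.32 and 3.01), and 23 miRNAs differed more than 4-fold. For miR-1a-3p the 2 probes differed 7.57-fold. Such probes read the same RNA, and dimmer probes were left out. The spread therefore does not give the size of the effect between different miRNAs, which was not measured. Ranks below are therefore ranks of brightness.

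The edge of detection lay at a low intensity. The dimmest miRNAs inside it were miR-677-3p, miR-17-3p and miR-148b-3p, with mean intensities of 29.2, 42.8 and 46.5. The brightest miRNAs outside it were miR-31-5p (detected on 2 arrays), miR-127-3p (3 arrays) and miR-7009-5p (3 arrays), with mean intensities of 161, 157 and 138. miR-31-5p, a miRNA known from hair growth and wounded epidermis, gave intensities of 7.45, 575, 6.50 and 56.3 on normal 1 to 4. Its mean thus rested on normal 2. Of all miRNAs on the array, 1546 were detected on no array, and 33, 29 and 23 on 1, 2 and 3 arrays.

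The signal was concentrated in few miRNAs. The 10 with the highest mean share held 45.8%, 49.5%, 55.3% and 53.4% of the signal on normal 1 to 4 (51.0 ± 4.20%, n = 4), and the top 25 held 71.9 ± 3.60%. Counting down from the brightest on each array, 12, 11, 8 and 9 miRNAs were enough to reach 50% of the signal, and 65 ± 4.69 to reach 90%. At the other end, 156 ± 5.83 of the 250 had a share below 0.1%, and the median share was 0.0591 ± 0.00256%.

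**Figure D1:**
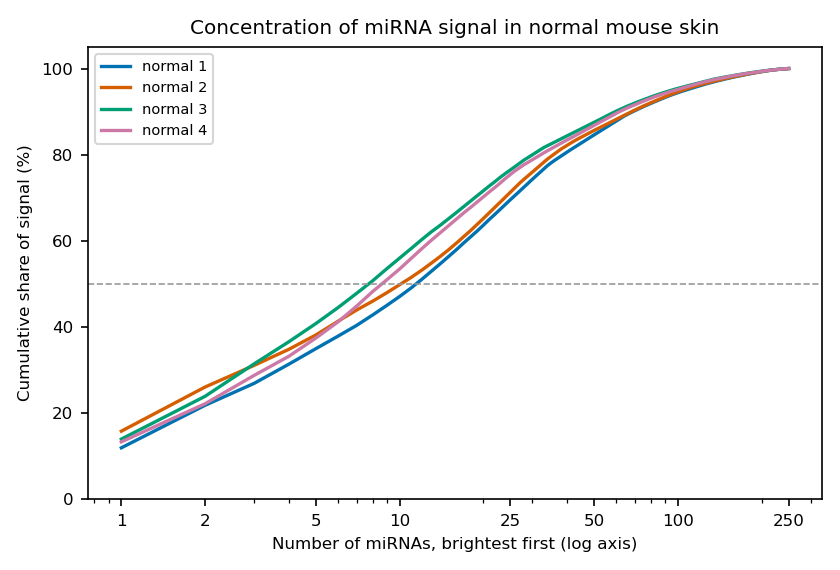
Cumulative share of the summed signal (%, vertical axis) against the number of miRNAs taken from the brightest down on each array (log axis), 1 line per array, with a dashed line at 50%. The lines cross 50% at 8 to 12 miRNAs, with normal 3 and 4 above normal 1 and 2 over most of the range beyond the brightest few.

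A pair of miRNAs with little known biology were the brightest on every array. miR-6366, whose mature sequence lies at chr16:18165093-18165114 on the minus strand outside the span of any other annotated gene, held 11.9%, 15.8%, 13.9% and 13.3% of the signal (13.7 ± 1.61%). miR-3963, at chr3:151023839-151023857 on the minus strand and likewise outside other genes, held 9.88%, 10.3%, 9.95% and 8.85% (9.74 ± 0.613%). They were first and second in brightness on all 4 arrays, and miR-6366 exceeded miR-3963 by 0.49 ± 0.16 (log2, n = 4). The probes of miR-6366 match only 11 and 12 bases of it and those of miR-3963 match 15 and 16. Among other bright miRNAs, probes match 14 and 15 bases of miR-494-3p, 15 and 16 of miR-205-5p, and 18 and 19 of let-7c-5p. The probe length of miR-3963 was thus not particular to it. How far other RNAs contribute to the signals of any of these miRNAs was not tested.

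The next places went to striated muscle miRNAs and to let-7. miR-1a-3p, the most abundant miRNA of heart and skeletal muscle, held 1.97%, 5.03%, 7.52% and 6.58% (5.28 ± 2.43%), which put it at rank 12 on normal 1 and at rank 3 on the other arrays. let-7c-5p held 5.08%, 3.73%, 4.22% and 4.44% (4.37 ± 0.561%). let-7b-5p held 4.46%, 3.17%, 3.67% and 3.73% (3.76 ± 0.533%). let-7c-5p was brighter than let-7b-5p on all 4 arrays by a nearly fixed step of 0.22 ± 0.03 (log2).

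The order within the 25 brightest was otherwise loose. Of the 24 pairs of neighbours in the ranking by mean share, 4 had the same order on all 4 arrays, and in 5 the mean log2 difference was larger than its own SD over arrays. Those 5 were miR-6366 over miR-3963, miR-3963 over miR-1a-3p (1.05 ± 0.90), let-7c-5p over let-7b-5p, let-7f-5p over miR-23a-3p (0.14 ± 0.13, in order on 3 arrays) and miR-29a-3p over miR-203-3p (0.25 ± 0.17). The other 19 neighbours did not differ beyond their spread.

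Further members of the 25 brightest have broad roles. miR-494-3p, at chr12:109715367-109715388 in the imprinted Dlk1-Dio3 locus, held 2.24%, 1.65%, 2.82% and 3.66% (2.59 ± 0.859%), highest on normal 4 and lowest on normal 2. miR-23a-3p, miR-24-3p and miR-27a-3p, which lie together on chromosome 8 (with a further miR-24-3p locus on chromosome 13), held 2.09 ± 0.395%, 1.48 ± 0.231% and 1.15 ± 0.189%. miR-29a-3p, which targets collagen and other matrix mRNAs, held 1.89 ± 0.164%. miR-125b-5p, a regulator of epidermal and hair follicle stem cells, held 1.55 ± 0.158%, and miR-26a-5p 1.52 ± 0.233%. miR-21a-5p, which is raised in many inflamed and tumour tissues, held 1.18%, 1.38%, 0.896% and 1.04% (1.13 ± 0.205%).

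**Figure D2:**
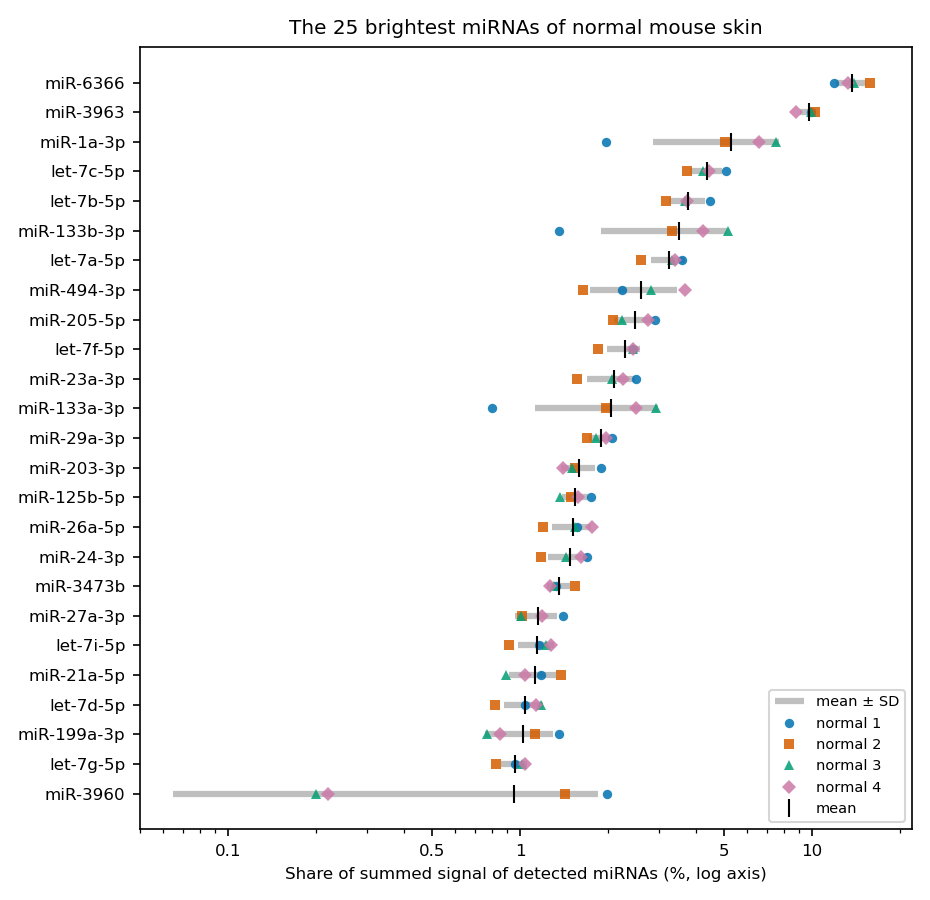
Share of the summed signal of the detected miRNAs (%, log axis) for the 25 with the highest mean share, with 1 point per array, a black tick at the mean and a grey bar for the mean ± SD of 4 arrays. miR-6366 and miR-3963 stand apart at the top, the muscle miRNAs miR-1a-3p, miR-133b-3p and miR-133a-3p are low on normal 1, and miR-3960 runs from 0.200% to 1.98%.

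Of the miRNA families, let-7 was the brightest. Its 9 detected members together held 19.1%, 14.2%, 17.4% and 17.8% of the signal (17.1 ± 2.08%). All 9 had their lowest scaled level on normal 2, where that level is the log2 intensity minus the log2 of the array's 75th percentile over the 372 probes well above background on all 4 arrays. Over all 250 miRNAs the lowest level fell on normal 2 in 99 (39.6%). let-7c-5p gave 25.5 ± 1.11% of the family's signal, let-7b-5p 21.9 ± 1.14%, let-7a-5p 18.9 ± 0.365% and let-7f-5p 13.4 ± 0.593%. let-7i-5p (1.15 ± 0.161% of all signal), let-7d-5p (1.04 ± 0.158%) and let-7g-5p (0.961 ± 0.0968%) followed, and let-7e-5p and miR-98-5p gave 1.62% and 0.350% of the family. let-7k was detected on 0 arrays.

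The members at the top of the family differ by 1 or 2 bases. Counted from the 5′ end and against let-7a-5p, the substitution in let-7c-5p is A19G, those in let-7b-5p are A17G and A19G, and that in let-7f-5p is G12A. let-7e-5p has U9G, let-7d-5p has U1A and U16C, let-7g-5p has G12U and U18C, and miR-98-5p has G11A and A19U. let-7i-5p has the most, G12U, A17G, U18C and A19U. No probe of a let-7 member matched another miRNA exactly over its whole length, but binding with 1 mismatch was not tested, so the split within the family is a split of probe signal. let-7c-5p is encoded at 2 sites, chr15:85706616-85706637, next to let-7b-5p (chr15:85707325-85707346) within the long non-coding RNA gene Lncppara, and chr16:77599672-77599693.

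The other families were smaller and mostly led by 1 member. The miR-23 pair held 2.88 ± 0.561% of the signal with 72.5% of it from miR-23a-3p, and the miR-29 family 2.51 ± 0.156% with 75.2% from miR-29a-3p. The miR-26 pair held 1.92 ± 0.286% with 78.9% from miR-26a-5p, and the miR-27 pair 1.46 ± 0.227% with 78.8% from miR-27a-3p. In the miR-125 family, 95.4% came from miR-125b-5p. The miR-30 family, known for roles in autophagy and differentiation, held 1.07 ± 0.0693% with 52.6% from miR-30a-5p. An exception was the miR-15 and miR-16 family of cell cycle inhibitors (2.60 ± 0.404%), where all 6 members were detected and the leader, miR-16-5p, gave 29.0%, followed by miR-195a-5p (25.2%), miR-497a-5p (14.8%) and miR-15a-5p (14.8%).

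Grouped by sequence alone, the 211 detected miRNAs that matched RefSeq had 166 seeds. Of these, 24 were shared by at least 2 miRNAs, and the 69 miRNAs with a shared seed held 34.9% of the signal. By position, 72 of the 211 lay within 10000 bases of another detected miRNA on the same strand, in 34 clusters, of which 6 hold only the arms of 1 hairpin. miR-200b-3p, miR-200a-3p and miR-429-3p share a cluster on chromosome 4, and miR-200c-3p and miR-141-3p another on chromosome 6.

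Epithelial miRNAs were among the bright ones. Of the 11 on the list, 8 were detected, and they held 6.35%, 4.76%, 5.07% and 5.65% of the signal (5.46 ± 0.702%). miR-205-5p, at chr1:193507503-193507524 on the minus strand, held 2.89%, 2.07%, 2.24% and 2.74% (2.49 ± 0.394%) and gave 45.6% of the list. miR-203-3p, at chr12:112130927-112130948, held 1.90%, 1.55%, 1.51% and 1.41% (1.59 ± 0.214%). 0 of these 8 ranged over more than 2-fold between arrays on the scaled level, where 31.2% of the 250 did. Most of the 8 were brighter than the median of the 250, and brightness was not matched. Detection on all arrays was also the condition for being counted, which left out miR-31-5p.

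Each member of the miR-200 family was below these 2. The miR-200b, miR-200c and miR-429 group held 0.972 ± 0.142% of the signal, with miR-200b-3p at 0.387 ± 0.0562% and miR-200c-3p at 0.316 ± 0.0580%. Its miR-141 and miR-200a group held 0.352 ± 0.0467%, with 68.6% from miR-200a-3p. Of the epithelial list, miR-31-5p missed detection on 2 arrays, and miR-184-3p and miR-200b-5p were detected on 0.

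Striated muscle had the highest mean share of the tissue lists, although the epithelial list was above it on normal 1, and its share varied widely. Its 5 detected miRNAs held 4.27%, 10.6%, 16.8% and 14.0% of the signal on normal 1 to 4 (11.4 ± 5.39%), 3.93-fold more on normal 3 than on normal 1. All 5 had their lowest scaled level on normal 1, as had 56 of all 250 miRNAs (22.4%). miR-133b-3p, which represses non-muscle splicing and cytoskeletal genes, held 1.36%, 3.33%, 5.14% and 4.23% (3.51 ± 1.62%). miR-133a-3p held 0.800%, 1.97%, 2.93% and 2.50% (2.05 ± 0.923%). In bulk tissue a difference in the amount of muscle and a difference in miRNA per muscle cell cannot be told apart, and what set the level on each array was not tested.

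The muscle miRNAs kept their ratios, apart from miR-206-3p. Relative to miR-1a-3p on the same array, miR-133b-3p stood at -0.58 ± 0.05 and miR-133a-3p at -1.35 ± 0.04 (log2, n = 4), although each ranged over more than 4-fold between arrays. RefSeq had no sequence for miR-133a-3p, so whether its probes and those of miR-133b-3p read each other's miRNA was not tested. miR-206-3p, a skeletal muscle miRNA encoded near miR-133b within the span of the Lincmd1 gene, gave intensities of 572, 1431, 6678 and 3538. Its log2 ratio to miR-1a-3p was -4.18, -4.35, -2.81 and -3.58, so that it was more than proportionally high on normal 3. The heart and slow-fibre miRNAs miR-208a-3p, miR-208b-3p and miR-499-5p were detected on 0 arrays.

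Mesenchymal and vessel miRNAs came next. The 6 detected miRNAs of the fibroblast list held 2.72%, 2.28%, 1.65% and 1.73% (2.10 ± 0.503%). miR-199a-3p, abundant in dermal fibroblasts, gave 49.1% of the list, but its probes also match miR-199b-3p exactly, so the value stands for both. miR-199b-5p held 0.408 ± 0.0915% and miR-199a-5p 0.208 ± 0.0759%. miR-126a-3p, the endothelial miRNA encoded within the span of Egfl7, held 0.566%, 0.567%, 0.601% and 0.535% (0.567 ± 0.0270%), nearly the same on every array. The smooth muscle miRNAs miR-143-3p and miR-145a-5p held 0.101 ± 0.0200% and 0.0207 ± 0.00475%, and the star arms miR-143-5p and miR-145a-3p were detected on 0 arrays.

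Blood and fat miRNAs were detected at low shares. The white blood cell list held 0.583 ± 0.0711%, with 7 of 8 detected and 54.6% of it from the myeloid miR-223-3p (0.318 ± 0.0314%). miR-142a-3p and miR-146a-5p, of all leukocytes and of the NF-κB response, held 0.0543 ± 0.0143% and 0.0696 ± 0.0265%. The 4 fat-linked miRNAs held 0.626 ± 0.130%, with miR-193b-3p at 0.286 ± 0.0745%. miR-451a, the Dicer-independent miRNA of red blood cells, held 0.426%, 0.336%, 0.164% and 0.0898%, a range of 4.42-fold on the scaled level with normal 1 highest. miR-486a-5p, also a red cell miRNA and expressed in muscle too, had intensities of 87.0, 187, 349 and 317, with normal 1 lowest. The red cell miRNAs miR-144-3p and miR-144-5p were detected on 0 arrays.

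Nerve and pigment cell miRNAs were near the edge of detection, with 1 exception. Of 7 neural and Schwann cell miRNAs, miR-338-3p and miR-128-3p were detected on all arrays and together held 0.0506 ± 0.00670%. miR-9-5p, miR-9-3p, miR-124-3p, miR-138-5p and miR-219a-5p were detected on 0. In the pigment cell list, miR-211-3p, the 3p strand of a hairpin in the melanocyte gene Trpm1, held 0.298%, 0.349%, 0.0534% and 0.0565%. The 5p strand was detected on 2 arrays only. miR-204-5p, the other detected miRNA of that list, had another order of arrays. It held 0.0253 ± 0.00491%, with intensities of 122, 155, 124 and 202, highest on normal 4. The liver miRNAs miR-122-5p and miR-122-3p, the pancreatic miR-375-3p, miR-216a-5p and miR-217-5p, and the embryonic stem cell miRNAs miR-290a-5p, miR-291a-3p, miR-294-3p and miR-295-3p were each detected on 0 of the 4 arrays.

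**Figure D3:**
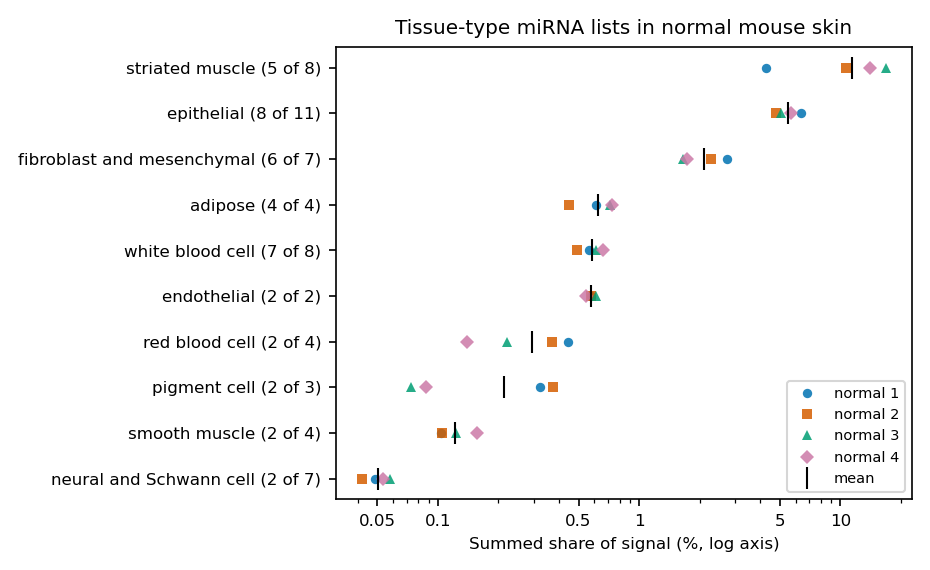
Summed share of signal (%, log axis) of the detected miRNAs of each tissue list, with 1 point per array and a black tick at the mean of 4 arrays. The brackets give how many of the list's miRNAs on the array were detected. Striated muscle runs from 4.27% to 16.8%, epithelial from 4.76% to 6.35%, and the endothelial points lie almost on each other.

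Arm use was one-sided for most hairpins. Of the 169 hairpins with both arms on the array and at least 1 detected arm, 97 had only the 5p arm detected on all arrays, 58 only the 3p arm and 14 both. The brighter arm was the 5p in 101 and the 3p in 68, and the direction was the same on all 4 arrays in 164. In 150 the other arm was detected on 0 arrays, so there the direction followed largely from which arm was detected. Of the 14 with both arms detected, the direction was the same on all 4 arrays in 12. By signal, 5p-named miRNAs held 35.2 ± 3.20%, 3p-named ones 31.6 ± 5.18% and the 45 miRNAs with no arm in their name 33.2 ± 5.11%, the last including miR-6366 and miR-3963.

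The balance of arms differed with the age of the name. Among the 119 hairpins numbered below 1000, 59 had the 5p arm brighter and 60 the 3p arm. Among the 50 with higher numbers, 42 had the 5p arm brighter and 8 the 3p. In 48 of these 50 and 102 of the 119 the other arm was detected on 0 arrays. The counts thus mostly restate which arm was detected. Higher-numbered miRNAs were also detected less often (86 of 1062, 8.10%, against 164 of 819, 20.0%), and the difference was not tested. They held 35.0 ± 4.84% of the signal, most of it from miR-6366 and miR-3963.

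Of the 14 such hairpins that give one of the 25 brightest miRNAs, 11 had a minor arm that was not detected on any array, so that the ratio is a lower bound set by the lowest detected intensity on each array. The smallest bound of the 4 arrays is given here. let-7b-5p was at least 491-fold brighter than its 3p arm, and miR-205-5p at least 321-fold. miR-133b-3p was at least 307-fold brighter than its 5p arm, miR-494-3p at least 255-fold, miR-23a-3p at least 242-fold, and miR-29a-3p at least 139-fold. These describe probe signals of different sequences, as above.

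Where both arms were detected, the ratio could be measured on each array. Of the 14 such hairpins, 10 had the 3p arm brighter. The log2 ratio of 5p to 3p was -5.80 ± 0.17 for miR-126a, -5.46 ± 0.13 for miR-22, -4.91 ± 0.12 for miR-203 and -4.71 ± 0.06 for miR-133a, each steady over the arrays. It was -2.96 ± 0.31 for miR-378a and -2.34 ± 0.17 for miR-199a. The 2 largest ratios rest on dim minor arms. miR-126a-5p had intensities of 56.9, 67.2, 63.4 and 54.2 on normal 1 to 4, not far above the edge of detection. miR-22-5p held 0.0162% of the signal. On the 5p side stood miR-466i (4.49 ± 0.45), miR-30a (4.20 ± 0.28), miR-30e (2.59 ± 0.28) and miR-125a (0.83 ± 0.37). miR-140, abundant in cartilage, was near balance at -0.68 ± 0.14.

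The remaining 3 were unsteady. The log2 ratio of miR-652 was -1.69, -0.32, -3.23 and -3.39 on normal 1 to 4. That of miR-1897 was 0.57, 1.98, -1.81 and -1.65, so that the 5p arm was brighter on normal 1 and 2 and the 3p arm on normal 3 and 4. miR-1839 ran from -0.75 to 0.48. The 5p arms of miR-652 (intensities of 213, 287, 94.4 and 66.2) and miR-1897 (406, 666, 116 and 164) were brighter on normal 1 and 2. On the same arrays miR-652-3p held 0.131%, 0.0617%, 0.143% and 0.108% of the signal. miR-1897-3p held 0.0518%, 0.0291%, 0.0652% and 0.0802%. Whether arm use itself changed was not tested.

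**Figure D4:**
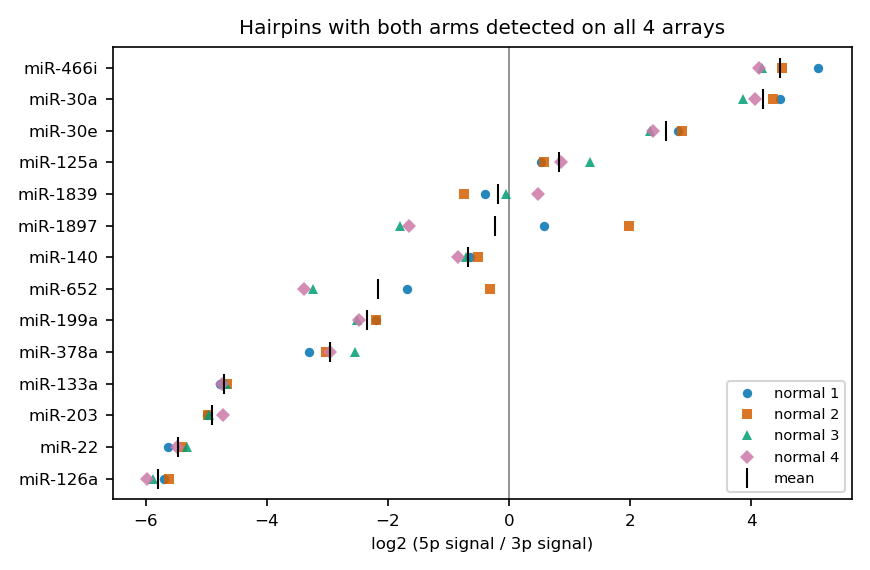
log2 of 5p over 3p signal for the 14 hairpins with both arms detected on all 4 arrays, with 1 point per array and a black tick at the mean, and a vertical line at 0 where the arms are equal. The points of miR-126a, miR-22, miR-203 and miR-133a lie between -6 and -4.6, and those of miR-1897 lie on both sides of 0.

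Most miRNAs were steady between the arrays, and a minority was not. The SD of the scaled level over the 4 arrays had a median of 0.292 (quartiles 0.190 and 0.520), 111 miRNAs were under 0.25 and 20 over 1, and 78 ranged over more than 2-fold. Normal 3 and 4 were the most alike, with 7 of 250 miRNAs more than 2-fold apart, followed by normal 1 and 2 with 16. The other pairs had 42 to 53. The steadiest of the brighter miRNAs were miR-8101 (SD 0.03), miR-130a-3p (0.05), miR-93-5p (0.05), miR-25-3p and miR-106b-5p (0.06 each) and miR-34a-5p (0.07). miR-25, miR-93 and miR-106b are cut from 1 transcript in an intron of Mcm7 and promote the cell cycle.

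The least steady of the brighter miRNAs were mostly high on normal 1 and 2 and low on normal 3 and 4. miR-3960 had scaled levels of 3.52, 3.07, 0.46 and 0.46, a range of 8.37-fold. miR-8110 had 3.19, 3.31, 0.88 and 0.89, and miR-5126 2.79, 2.91, 0.80 and 0.84. The same side of each array held for miR-5128 (2.26, 2.70, 0.46 and 0.47), miR-721, miR-211-3p, miR-3473e, miR-3473f and miR-7040-5p, while miR-206-3p was the only one of the 10 that was high on normal 3 and 4.

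The sequences of 5 of these are shown with 2 steady miRNAs of like sequence, with the seed in capitals, because pairs that share a seed differed in how steady they were and most of the 5 hold a run of G.
miR-8110: aAGCGUGGauugggggggggg
miR-5126: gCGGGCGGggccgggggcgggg
miR-211-3p: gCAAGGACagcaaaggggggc
miR-721: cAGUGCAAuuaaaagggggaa
miR-130a-3p: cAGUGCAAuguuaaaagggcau
miR-3473e: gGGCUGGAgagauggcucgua
miR-3473b: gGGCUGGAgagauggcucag

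miR-721 shares its seed with miR-130a-3p, but ranged over 6.96-fold between arrays where miR-130a-3p ranged over 1.08-fold. miR-3473e shares its seed and a run of 18 bases with miR-3473b, yet ranged over 6.96-fold against 1.18-fold. miR-3473b was among the 25 brightest (1.36 ± 0.124%), and its probes also match miR-3473a exactly. A run of 4 or more G (GGGG, searched on the miRNA strand only) was present in 9 of the 14 miRNAs with a known sequence and an SD over 1 (64.3%), in 38 of all 211 (18.0%) and in 144 of the 1397 others on the array with a sequence (10.3%). The 9 are among the 38, so most detected miRNAs with such a run did not have an SD over 1. miR-6366 has such a run and was steady, with an SD of 0.22, as were miR-6898-5p (0.05), miR-6769b-5p (0.07) and miR-1224-5p (0.19). What sets the array-to-array range of the unsteady miRNAs was not tested.

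**Figure D5:**
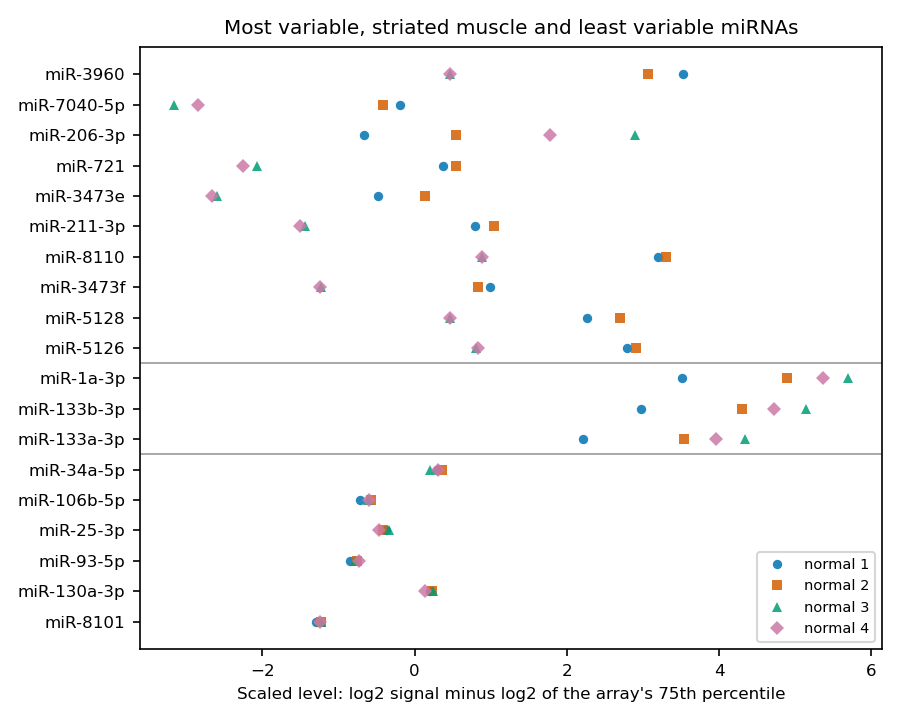
Scaled level (log2 intensity minus log2 of the array's 75th percentile) of the 10 least steady of the brighter miRNAs (top), 3 striated muscle miRNAs (middle) and the 6 steadiest (bottom), with 1 point per array. In the top block all but miR-206-3p have normal 1 and 2 to the right of normal 3 and 4, the muscle miRNAs have normal 1 farthest left, and the points of the bottom block nearly coincide.

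The detected miRNAs were also described by their base composition. A U at the first base, which Argonaute favours, was present in 97 of the 211 with a sequence (46.0%), in 550 of the 1397 others (39.4%) and in 16 of the 22 among the 25 brightest (72.7%). Several of those 16 are let-7 members with the same first bases, so they are not separate cases. The median GC content was 50% for the detected miRNAs and 52.4% for the others, and the median length was 22 bases in both sets. These counts are descriptions of the miRNAs on the array, with no test.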

How the data were processed

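Total RNA was extracted with a mirVana kit and labelled with Cy3, per the labels' protocols. The deposited scanner files hold the intensity of each spot from Agilent Feature Extraction 10.7.1.1, with a fitted background subtracted, positions on mm9 and no scaling between arrays, per the file headers. For the same arrays the series matrix, also deposited, gives log2 values whose medians were 3.24, 3.24, 3.25 and 3.25. Over the 250 miRNAs they correlated with log2 intensity at r from 0.987 to 0.988 (across miRNAs); their centring and normalization are not given in the sources used here. 0 of its value columns could not be mapped.

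Control spots (2164 of 58594) and spots marked as outliers (2476 to 2940 per array) were left out, and 0 spots were saturated. Processed intensities were averaged per probe (4415 probes) and summed per miRNA, using Python 3.11.15, pandas 2.3.3, R 4.3.3 and limma 3.58.1 (normexp only). Detection was the software's call. A probe was well above background where 50% of its spots were. The number of arrays limits the precision. No groups were compared, so no test between groups was run; Dixon's ratio was used to find arrays that stand apart. Scripts were tested on simulated data.

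Named miRNAs were the 25 brightest, up to 4 of each list and family, the hairpins with both arms detected and those of the 25, the 10 most and 6 least variable of the brighter 50%, and the 3 on each side of the detection edge. Members, lists and rules were chosen with earlier results of these data known. RefSeq had a sequence for 211 of the 250 miRNAs and not for 39.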

Additional observations from a re-analysis of the deposited data

Results flagged for a closer look

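For 6 of 166 quantities checked, 1 array stood apart from the other 3 by more than the 95% critical value of Dixon's ratio. Chance exceeds that value in about 1 of 20 sets of normally distributed values. The 166 quantities overlap, since the shares of lists and families contain those of their members. The count of 6 therefore cannot be weighed against chance. On normal 2 the share of let-7f-5p was 1.84%, against 2.43% to 2.44% on the other arrays, and the share of miR-193b-3p was 0.175%, against 0.316% to 0.336%. The same array was high for 2 miRNAs outside the 250: miR-31-5p had an intensity of 575, against 6.50 to 56.3, and miR-127-3p, an imprinted miRNA of the Dlk1-Dio3 locus, had 444, against 28.8 to 93.9. These 2 were checked as being among the brightest miRNAs outside the 250. That choice favours 1 outlying array, so the rate of 1 in 20 does not hold for them in any case. On normal 1 the share of miR-30a-5p was 0.494%, against 0.576% to 0.593%. On normal 4 the log2 ratio of the miR-203 arms was -4.73, against -4.98 to -4.96.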

How the results depend on the processing

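miR-6366 and miR-3963 stayed first and second in brightness under all 13 alternatives to the ranking, and 23 to 25 of the 25 brightest were kept; miR-3960 and let-7g-5p were the ones lost. The 10 brightest held 46.3% by the software's total and 41.4% without miR-6366 and miR-3963, an alternative chosen after seeing the data, as was leaving out the muscle list. let-7 then held 22.4% (without those 2) and 19.4% (without muscle), and the epithelial list 7.12% (without those 2) and 6.34% by the software's total. With no filter on dim miRNAs the count was 1881, and 160 hairpins had the 5p arm brighter; with both arms detected it was 4. The median SD was 0.186 with normexp. The cause of these shifts was not tested beyond the change in what was counted. Leaving out each array in turn gave 252 to 261 miRNAs, 49.5% to 52.9% for the 10 brightest, 9.33 to 10.7 miRNAs for 50%, 16.5% to 18.1% for let-7, 5.16% to 5.68% for epithelial, 9.61% to 13.8% for striated muscle, 102 to 109 hairpins and a median SD of 0.234 to 0.297. Of 91 named shares, 23 moved beyond their SD with the brightest probe, 27 with normexp, 22 with the software's total and 30 with the series matrix. 40 of the 250 miRNAs had 0 probes well above background on all arrays, so their shares are the least certain. No paired analysis was possible because 1 group is described and no result comes from a test between groups.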

Other observations

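A set of mostly dimmer miRNAs, singled out after their values were seen, had another order of arrays. miR-7682-3p had intensities of 169, 37.5, 188 and 35.2 on normal 1 to 4, miR-6904-5p 414, 91.6, 361 and 86.6, and miR-504-3p 258, 59.6, 268 and 64.1. miR-7218-5p had 327, 97.7, 341 and 112, and miR-6918-5p, the brightest of them by mean share, 589, 184, 571 and 169. All 5 were high on normal 1 and 3 and low on normal 2 and 4. miR-714 followed the more common order, with 92.5, 286, 30.6 and 33.7.

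miR-10a-5p and miR-10b-5p, which are encoded in Hox gene clusters, had a combined share of 0.364 ± 0.0142%. Their split moved more than the sum. miR-10a-5p had intensities of 256, 818, 657 and 951, lowest on normal 1, and miR-10b-5p 1607, 1294, 1549 and 1525.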
